A study of Rattus norvegicus with 15 samples.

Results

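The insulin-like growth factor (IGF) family, its ligands, receptors and binding proteins, was described in neurons laser-captured from the rat midbrain. Neurons came from the pars compacta of the substantia nigra (SNc), whose dopamine cells project mainly to dorsal striatum, or from the adjoining ventral tegmental area (VTA), whose dopamine cells reach chiefly ventral striatum and cortex. The data were 8 arrays of SNc (1 to 8) and 7 of VTA (1 to 6 and 8), all of an Affymetrix rat expression design that measures transcripts with probe sets, groups of short probes. The series title names Parkinson's disease, and the labels name no disease or treatment group. No source used here gives strain, age, sex, pooling, how neurons were recognised or the number of animals, so p-values measure only the spread between arrays, which may be technical. The members were chosen by platform gene symbol from a list of 10 genes. Of these, 9 had a probe set, 24 probe sets in all, among 8740 probe sets and 4736 gene symbols of the array, and Igfbp4 is not analysed here. The family was put together with an earlier result of these arrays known, the higher signal of an Igf1 probe set in SNc. The differences of the members between SNc and VTA are therefore a description, given with the standard error (SE) of the fit and without a printed p-value. Where a member is said to pass or miss a threshold, this too is a description and no evidence of a difference.

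IGF1 and IGF2 are secreted peptides related to insulin that promote growth and survival of neurons and other cells. They act through IGF1R, a receptor tyrosine kinase that feeds the PI3 kinase and Akt pathway and the Ras and MAP kinase pathway, while IGF2R, also the mannose 6-phosphate receptor, takes up IGF2 and sorts lysosomal enzymes. The binding proteins hold IGFs in tissue fluid and blood and can lengthen their life or keep them from the receptor. In the adult rodent brain, Igf2 and Igfbp2 are known as transcripts of choroid plexus and meninges more than of neurons.

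Signals are the deposited linear intensities. Differences are SNc minus VTA of log2(signal + 16), so folds derived from them are on that scale and understate the change of dim probe sets. The dimmest 40%, below a mean signal of about 26.3, were left out of the fit. Of the 24 member probe sets 16 passed this filter, for 8 genes, and 8 did not, among them the Igfbp1 probe set. Arrays had median signals of 38.0 to 46.8, and the 3' to 5' ratio of the actin control between 6.14 and 15.4 in SNc and 7.40 and 9.43 in VTA. On the first principal component, with 16.9% of the variance, the other SNc arrays lay at 0.25 to 0.41 and VTA arrays at -0.44 to -0.09, while SNc 5, SNc 7 and SNc 8 lay between them, at -0.0009, -0.0236 and -0.0818. VTA 5 and VTA 8 correlated least with the rest, with median r of 0.910 and 0.919, against 0.926 to 0.941 for the other arrays. Captures of both regions carried dopamine neuron markers. Th, tyrosine hydroxylase, ran from 5893 to 7355 in SNc and 5967 to 8171 in VTA, and Slc6a3, the dopamine transporter, from 6327 to 8312 in SNc and 4673 to 7815 in VTA. Several glial transcripts were bright as well. Mbp and Mobp, of myelin, averaged 3784 and 2168 in SNc and 4838 and 3064 in VTA, Aldoc and S100b, of astrocytes, 2200 and 1344 in SNc and 2054 and 1499 in VTA, and Ctss, of microglia, 973 in SNc and 843 in VTA. The other astrocyte markers ran from bright to dim. In SNc Glul averaged 1310, Slc1a3 400, Slc1a2 46.5, Aqp4 31.8 and Gja1, below the filter, 3.54. In VTA they averaged 1319, 395, 61.5, 63.6 and 4.31. The next microglia marker, Ptprc, averaged 51.3 in SNc and 53.3 in VTA. Slc17a7, the 1 of 3 listed glutamate neuron markers with a probe set, averaged 3.73 in SNc and 4.03 in VTA, below the filter. The others listed had no probe set, so the array cannot tell whether glutamate neurons were captured. In such captures, fewer cells of a type and less RNA per cell cannot be told apart.

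In the family as a whole, an Igf1 probe set was about 4-fold higher in SNc and an Igfbp3 probe set about 2.3-fold higher in VTA, and the other probe sets of both genes showed smaller differences. These 2 of the 16 tested member probe sets passed an adjusted p of 0.05 in limma (Benjamini-Hochberg), where 1.98% of all 5244 tested probe sets passed, 0.839% higher in SNc and 1.14% higher in VTA. Because the family was chosen with this contrast known, nothing is read from that count. The 14 others lay between -0.51 and 0.04. Of the 16, 14 were lower in SNc, with a median of -0.21, beside a median of -0.04 over all tested probe sets, 56.7% of which were lower in SNc. With each array centred on its median the medians were -0.11 and 0.05, and 12 of the 16 were lower in SNc against 42.7% of all. Complete separation of SNc and VTA arrays was seen in 0 of the 16, and in 0.858% of all tested probe sets. The 8 probe sets below the filter differed by -0.31 to 0.11 in a fit without the filter.

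**Figure D1:**
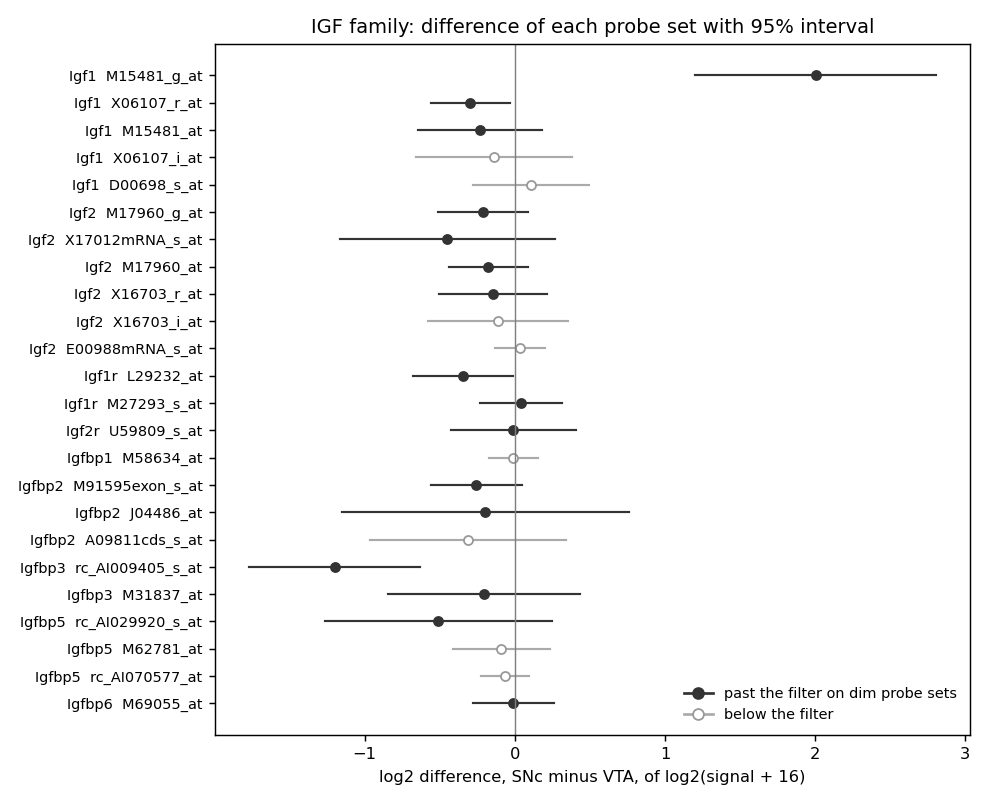
Difference between SNc and VTA for each of the 24 IGF family probe sets, with 95% intervals of the fit, on the log2(signal + 16) scale. Positive values are higher in SNc. Igf1 M15481_g_at lies at 2.003 and Igfbp3 rc_AI009405_s_at at -1.20, while the other filled points lie between -0.51 and 0.04. Open points are the 8 dim probe sets, from a fit without the filter.

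Of the ligands, Igf1 is covered by 5 probe sets, and only M15481_g_at was higher in SNc among the 3 past the filter. Its signal was 125, 286, 149, 292, 257, 287, 173 and 543 in SNc 1 to SNc 8, against 11.6, 75.0, 109, 42.8, 4.71, 131 and 63.0 in VTA 1 to VTA 6 and VTA 8. The groups overlapped through SNc 1 and VTA 6 alone: 7 of 8 SNc arrays lay above the highest VTA array, and 6 of 7 VTA arrays below the lowest SNc array. The mean was 264 ± 131 in SNc and 62.4 ± 47.1 in VTA (SD, n = 8 and 7), and the log2 difference 2.003 (SE 0.38), or 4.01-fold. Without SNc 5, SNc 7 and SNc 8 it was 1.85, without VTA 5 and VTA 8 it was 1.74, and on leaving out each array in turn it stayed between 1.73 and 2.20.

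The other Igf1 probe sets did not show this. X06107_r_at ran from 34.5 over a median of 49.8 to 53.9 in SNc and from 49.4 over 60.9 to 74.3 in VTA, a difference of -0.30 (SE 0.13). On this probe set 5 of 7 VTA arrays lay above every SNc array, the direction opposite to that of M15481_g_at, without passing the threshold. The difference of X06107_r_at was -0.20 both with arrays centred on their medians and with quantile normalization. M15481_at, drawn from the same sequence record as M15481_g_at, was dim, at 14.0 to 43.9 with a median of 22.8 in SNc and 18.4 to 73.6 with a median of 26.4 in VTA, and differed by -0.23 (SE 0.20), or by -0.07 without VTA 6, its highest array. The probe sets X06107_i_at and D00698_s_at were below the filter, with means of 13.8 and 10.2 in SNc and 15.7 and 8.39 in VTA. In the maker's naming, the suffixes mark design limits: a _g set shares probes with similar sequences, an _s set can match several similar transcripts, an _i set has fewer probes than usual and an _r set was picked with some design rules dropped. The files do not say which exons of Igf1 each set covers.

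**Figure D2:**
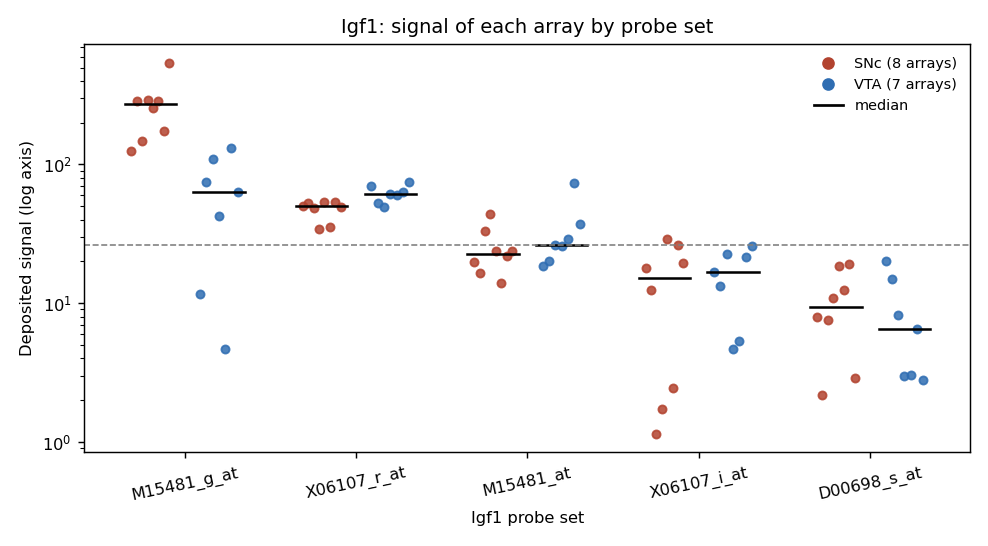
Deposited signal of the 5 Igf1 probe sets on a log axis, a point per array, SNc to the left of VTA, with medians as bars. The dashed line is the signal of about 26.3 below which probe sets were left out. M15481_g_at has medians of 272 in SNc and 63.0 in VTA; of the 4 others, D00698_s_at alone has the higher median in SNc, below the filter.

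The Igf1 probe sets differed from each other by 2.30 on the log2 scale between the highest and lowest difference. Among 851 genes with at least 2 tested probe sets, 1 gene had a larger spread, and the median spread was 0.19. This rank is a description only, since the family was put together with the high Igf1 probe set known. Igf1 also had 3 tested probe sets, which gives more room for a spread than 2. With the 3 tested probe sets averaged, the Igf1 difference was 0.49 (SE 0.18). On such gene means 0 of the 8 member genes passed the threshold in limma, beside 2.33% of 3221 genes, and 2 (Igf1 and Igfbp3) had an unadjusted p under 0.05, beside 15.8% of genes, so both calls were lost. Whether the probe sets at least varied together within a region was tested, since this does not use the difference between regions. Of the 20 correlations among the 5 probe sets, over 8 SNc or 7 VTA arrays, 0 passed an adjusted p of 0.05 in exact two-sided permutation tests (Benjamini-Hochberg over 20) and 1 had an unadjusted p under 0.05. That pair was X06107_r_at and X06107_i_at in SNc, with Pearson's r = 0.77 and Spearman's rho = 0.81 (exact permutation p = 0.0169 and 0.0218, adjusted 0.338 and 0.436), and r = 0.70 without the 2 arrays farthest from the median. It depended on the scaling: with arrays centred on their medians it had r = 0.54 and rho = 0.14 (exact permutation p = 0.179 and 0.752, adjusted 0.911 and 0.977) and r = -0.43 without the 2 farthest arrays. With quantile normalization it had r = 0.59 and rho = 0.12 (exact permutation p = 0.136 and 0.793, adjusted 0.932 and 0.933) and r = -0.31 without them. M15481_g_at and X06107_r_at had r = -0.24 and rho = -0.43 in SNc and r = -0.34 and rho = -0.21 in VTA (exact permutation p = 0.544, 0.299, 0.448 and 0.662; adjusted 0.946, 0.937, 0.946 and 0.937). Without the 2 farthest arrays these r were -0.47 in SNc and -0.31 in VTA. M15481_g_at and M15481_at had r = -0.03 and rho = 0.07 in SNc and r = 0.50 and rho = 0.39 in VTA (exact permutation p = 0.935, 0.882, 0.254 and 0.396; adjusted 0.946, 0.963, 0.946 and 0.937). Without the 2 farthest arrays these r were -0.23 in SNc and 0.58 in VTA. A pattern common to the Igf1 probe sets was thus not detectable with 8 and 7 arrays. Pairs with X06107_i_at or D00698_s_at, both below the filter, had little signal in which to show one. They were also counted in the adjustment over 20.

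Markers of GABA neurons differed among themselves. The summed signal of the 5 GABA neuron markers on the array (of 6 listed) ran from 925 to 1859 in SNc and from 560 to 1122 in VTA. Gad1, which makes GABA, averaged 754 in SNc and 279 in VTA (log2 difference 1.45, limma adjusted p = 0.00154), and Pvalb, parvalbumin, 141 in SNc and 53.7 in VTA (1.34, limma adjusted p = 0.0282). Slc32a1, the vesicular GABA transporter, averaged 403 in SNc and 374 in VTA (0.07, limma adjusted p = 0.901) and Gad2, the second GABA-making enzyme, 62.6 in SNc and 47.1 in VTA (0.23, limma adjusted p = 0.723). Sst, somatostatin, was below the filter, with means of 37.7 in SNc and 64.2 in VTA. None of the 5 was at 0, and the lowest signal was 6.45. Their part in the Igf1 difference was not tested.

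The probe sets most like M15481_g_at, by Pearson's r over all 15 arrays after each region's mean was taken off, were searched among 4297 with a single gene symbol. They were those of Foxn3, a forkhead repressor (r = 0.85), Lypla1, a depalmitoylating thioesterase (0.78), Apbb1, an adaptor of the amyloid precursor protein (0.78), Copb1, a coatomer subunit (0.78), and Csnk1d, a casein kinase (0.77). Foxn3 ran from 112 to 300.4 in SNc and from 80.3 to 195 in VTA, and the log2 differences of the 5 between the regions lay between -0.03 and 0.18. For X06107_r_at they were Zfp64, a zinc finger protein (r = 0.84), Plpp1, a lipid phosphatase (0.79), Mdm2, the ubiquitin ligase of p53 (0.77), Ralb, a Ras-like GTPase (0.77), and Gria4, an AMPA receptor subunit (0.75). The lists share no gene. These are the top of a search over many probe sets with 15 arrays, given with no p. Mdm2 also passed the threshold between the regions, at 65.0 to 137 in SNc and 153 to 183 in VTA (log2 difference -0.56, limma adjusted p = 0.0443).

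The other ligand, Igf2, showed no probe set past the threshold, and its array VTA 3 stood apart on a single probe set. X17012mRNA_s_at had 52.9, 86.8 and 167 as lowest, median and highest signal in SNc and 48.1, 121 and 534 in VTA, where VTA 3 held the 534 and the next array, VTA 2, 166. Its difference was -0.45 (SE 0.34), and -0.12 (SE 0.24) without VTA 3. M17960_g_at ran from 74.0 to 158 in SNc and from 116 to 168 in VTA, with means of 121 ± 23.9 and 142 ± 20.7 (SD, n = 8 and 7) and a difference of -0.21 (SE 0.14). SNc 3 was its low end, at 74.0 against 112 to 158 in the other SNc arrays. M17960_at and X16703_r_at differed by -0.18 (SE 0.13) and -0.15 (SE 0.17), the last between -0.23 without VTA 2 and -0.05 without VTA 4. On these 3 probe sets VTA 3, at 129.9, 45.1 and 21.3, was not the highest VTA array, so the Igf2 probe sets did not share the VTA 3 signal. The 2 dim Igf2 probe sets, X16703_i_at and E00988mRNA_s_at, averaged 13.4 and 7.96 in SNc and 14.8 and 7.33 in VTA.

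The receptors differed less than the called probe sets. Igf1r, the receptor through which both ligands signal, had 46.4, 56.5 and 66.8 as lowest, median and highest signal on L29232_at in SNc, and 38.0, 88.1 and 99.4 in VTA. There 5 of 7 VTA arrays lay above every SNc array, and VTA 8, at 38.0, below every SNc array. The difference was -0.34 (SE 0.16), and -0.48 without VTA 8. The second Igf1r probe set, M27293_s_at, ran from 52.4 to 78.1 in SNc and from 47.0 to 85.4 in VTA. It differed by 0.04 (SE 0.13), and by -0.02 without VTA 1 to 0.10 without VTA 4. The 95% intervals of the 2 probe sets overlapped, at -0.68 to -0.01 and -0.23 to 0.32, and the gap between them was not tested. Igf2r ran from 87.3 over 243 to 301 in SNc and from 172 over 220 to 269 in VTA, a difference of -0.01 (SE 0.20). SNc 5 held the 87.3, and the other SNc arrays lay between 183 and 301; without SNc 5 the difference was 0.15.

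Among the binding proteins, Igfbp3, the main carrier of IGFs in blood, was higher in VTA on rc_AI009405_s_at. The signal was 55.2, 37.5, 11.5, 74.9, 58.6, 7.07, 37.7 and 34.2 in SNc 1 to SNc 8, against 103, 87.5, 86.0, 83.6, 195, 118 and 66.8 in VTA 1 to VTA 6 and VTA 8. All arrays but SNc 4 and VTA 8 kept to their side, with 7 of 8 SNc arrays below the lowest VTA array. The mean was 39.6 ± 23.1 in SNc and 106 ± 42.7 in VTA (SD, n = 8 and 7), and the difference -1.20 (SE 0.27), 2.30-fold higher in VTA. VTA 5 was the highest array, and without it the VTA mean was 90.8 ± 17.7 and the difference -1.06. This probe set missed the threshold on leaving out SNc 3, VTA 1, VTA 5 or VTA 6. The second Igfbp3 probe set, M31837_at, had 11.3, 38.2 and 77.7 as lowest, median and highest signal in SNc and 7.14, 53.4 and 94.0 in VTA, with a difference of -0.20 (SE 0.31). Leaving out each array gave -0.44 (without VTA 8) to -0.06 (without VTA 3). The groups overlapped over nearly their whole range on it. With both averaged, the Igfbp3 difference was -0.70 (SE 0.24). Summed markers of vessels and blood, 8 of 12 on the array with 0 of them at 0 and a lowest signal of 9.66, ran from 514 to 1209 in SNc and from 566 to 2266 in VTA. Of these, Slc2a1 averaged 444 in SNc and 478 in VTA (log2 difference -0.04, limma adjusted p = 0.96). Hbb averaged 174 in SNc and 437 in VTA (-0.73, limma adjusted p = 0.494). In VTA it ran from 59.9 to 1194.6, the highest on VTA 3. Summed markers of oligodendrocytes, 7 of 9 with 0 at 0 and a lowest signal of 143, ran from 6184 to 10342 in SNc and from 8437 to 12748 in VTA. The part of both sets of markers in the Igfbp3 difference was not tested.

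**Figure D3:**
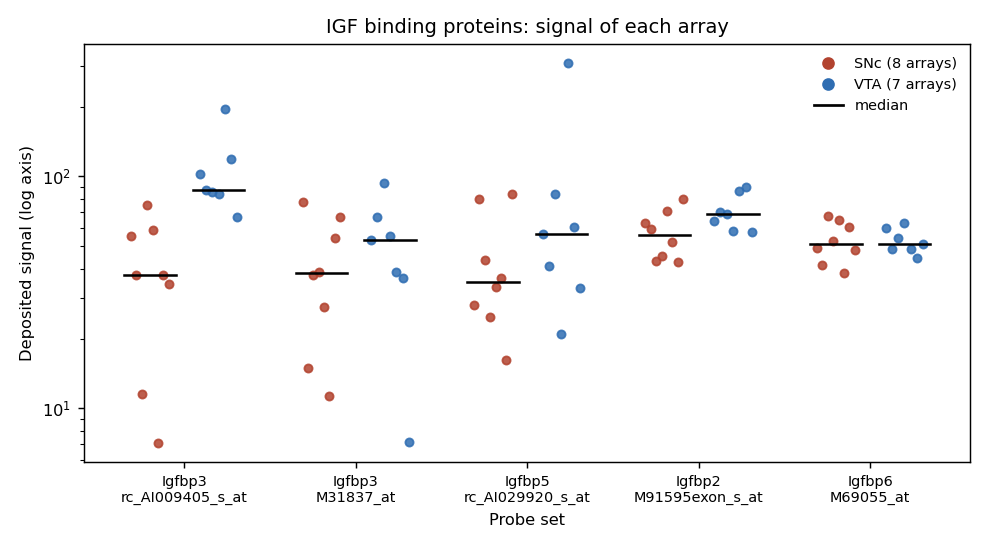
Deposited signal of 5 binding protein probe sets on a log axis, a point per array, SNc to the left of VTA, with medians as bars. Igfbp3 rc_AI009405_s_at has medians of 37.6 in SNc and 87.5 in VTA, while M31837_at of the same gene overlaps, and the high Igfbp5 point, at 308, is VTA 5.

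Igfbp5, which binds IGFs and matrix, gave 16.1, 34.9 and 83.6 as lowest, median and highest signal on rc_AI029920_s_at in SNc and 20.9, 56.2 and 308 in VTA. The 308 was VTA 5, also the highest array on Igfbp3 rc_AI009405_s_at, though on M31837_at it had 38.9, below VTA 3 at 94.0. Without VTA 5 the Igfbp5 difference of -0.51 (SE 0.36) was -0.17, the smallest on leaving out each array. At the other end it was -0.69 without VTA 4. The other Igfbp5 probe sets were dim, with means of 11.7 and 2.15 in SNc and 13.9 and 3.02 in VTA. Igfbp6, which prefers IGF2, was level, at 52.9 ± 10.7 in SNc and 52.9 ± 6.61 in VTA (SD, n = 8 and 7; difference -0.01, SE 0.13). Igfbp1, known mainly from liver, lay between 3.48 and 6.69 in SNc and 3.43 and 8.43 in VTA, below the filter on every array.

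Igfbp2, a binding protein of meninges, choroid plexus and glia, was dominated by VTA 3. On J04486_at VTA 3 had a signal of 601, against 10.9 to 46.1 in the 6 other VTA arrays, and SNc ran from 24.7 to 58.2. The mean was 41.59 ± 11.98 in SNc and 112 ± 216 in VTA (SD, n = 8 and 7), or 30.2 ± 13.4 in VTA without VTA 3. The difference of -0.20 (SE 0.46) was 0.35 (SE 0.20) without VTA 3, so this array turned its direction. A09811cds_s_at, dim on the other arrays at 3.34 to 16.2 in VTA and 5.25 to 12.5 in SNc, had 107 on VTA 3. M91595exon_s_at did not share this: VTA 3 had 69.1, within the other VTA arrays at 57.5 to 90.2, and the difference was -0.26 (SE 0.14). In the gap between VTA 3 and the next VTA array, J04486_at of Igfbp2 ranked 1 and X17012mRNA_s_at of Igf2 ranked 10 of 5244 tested probe sets.

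VTA 3 was also the highest array for markers of other cells. The 9 markers of choroid plexus, ependyma and meninges on the array (of 11 listed) summed to 4960 on VTA 3, against 783 to 1339 on the other VTA arrays and 714 to 1783 on SNc arrays. Of the 9, 7 were highest of all VTA arrays on VTA 3. Among these, Dcn and Lum were higher still on SNc 5, at 239 and 105, against 147 and 61.4 on VTA 3. Ptgds, a prostaglandin synthase of meninges, had 3607 on VTA 3, against at most 906 on the other VTA arrays, the intermediate filament Vim 556 against at most 149.8, and the collagens Col1a1 and Col1a2 239.6 and 217 against at most 151 and 104. The choroid plexus markers Ttr and Kcnj13 were not raised, with 45.3 and 4.92 on VTA 3, and VTA arrays running from 22.4 to 80.1 and from 1.46 to 19.1. The marker sum for vessels and blood was 2266 on VTA 3 and that for microglia 1873, both above every other array. So were the sums for astrocytes, at 6890, and oligodendrocytes, at 12748. Single genes held much of some sums: Ptgds 3607 of the 4960, Hbb 1194.6 of the 2266 and Ctss 1695.5 of the 1873. Only 3 of 8 vessel and blood markers and 2 of 7 microglia markers were highest of all VTA arrays on VTA 3. The sum of the 10 dopamine neuron markers on VTA 3, at 22837, was below every other array. The markers' part in the Igf2 and Igfbp2 signals of VTA 3 was not tested.

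**Figure D4:**
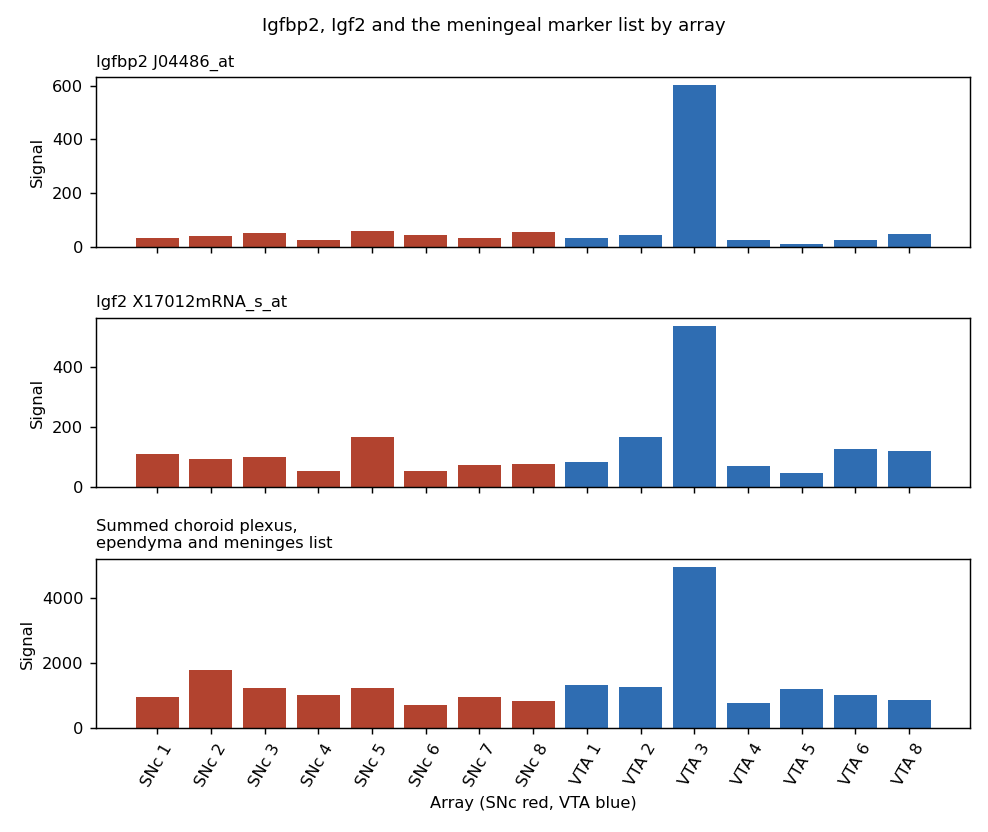
Deposited signal by array of Igfbp2 J04486_at, Igf2 X17012mRNA_s_at and the summed signal of 9 choroid plexus, ependyma and meninges markers, with SNc arrays to the left of VTA arrays and axes starting at 0. VTA 3 stands at 601, 534 and 4960, above all other arrays in each panel. Ptgds alone holds 3607 of the 4960.

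For Igf1 and Igfbp3, a probe set passed the threshold between the regions. For Igf2 and Igfbp2, a probe set stood far above the other arrays on VTA 3, which not all their probe sets shared. The start regions of these genes, on which the results turn, are therefore shown. They are windows of 300 bases from RefSeq, build GRCr8, reaching from 250 bases before to 50 after a gene's start and printed 5′ to 3′ on the gene's strand. All 10 genes of the list had a window. The TATA box was searched as TATAAA, the CCAAT box by these letters and the GC box as GGGCGG, each on both strands, and no matches overlapped. Capitals mark the matches, all of them GC boxes, in the second Igf2 window on the opposite strand.
Igf1, chr7:24172282-24172581, plus strand: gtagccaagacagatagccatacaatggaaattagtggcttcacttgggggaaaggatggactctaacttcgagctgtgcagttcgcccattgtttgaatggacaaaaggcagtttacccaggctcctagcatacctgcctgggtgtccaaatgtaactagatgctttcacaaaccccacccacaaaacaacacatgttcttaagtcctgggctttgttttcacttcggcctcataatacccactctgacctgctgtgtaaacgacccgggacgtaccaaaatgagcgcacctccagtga
Igf2, chr1:207250426-207250725, minus strand: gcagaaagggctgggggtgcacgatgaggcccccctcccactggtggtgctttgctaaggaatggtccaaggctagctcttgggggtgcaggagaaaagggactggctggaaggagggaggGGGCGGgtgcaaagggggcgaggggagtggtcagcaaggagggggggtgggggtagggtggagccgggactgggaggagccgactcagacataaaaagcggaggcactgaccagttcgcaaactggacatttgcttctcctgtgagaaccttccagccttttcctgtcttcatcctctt
Igf2, further start, chr1:207253931-207254230, minus strand: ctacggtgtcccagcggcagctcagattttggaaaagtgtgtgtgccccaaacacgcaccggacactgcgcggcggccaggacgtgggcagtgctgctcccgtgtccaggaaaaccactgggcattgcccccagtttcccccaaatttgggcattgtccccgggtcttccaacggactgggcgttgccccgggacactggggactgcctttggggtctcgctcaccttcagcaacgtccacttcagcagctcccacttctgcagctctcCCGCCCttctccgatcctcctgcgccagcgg
Igfbp2, chr9:81864561-81864860, plus strand: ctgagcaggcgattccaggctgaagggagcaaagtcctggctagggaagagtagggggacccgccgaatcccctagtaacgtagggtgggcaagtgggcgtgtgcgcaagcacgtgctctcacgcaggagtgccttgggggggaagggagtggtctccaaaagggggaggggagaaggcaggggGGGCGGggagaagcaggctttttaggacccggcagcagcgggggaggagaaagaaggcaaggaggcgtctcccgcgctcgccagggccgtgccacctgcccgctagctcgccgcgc
Igfbp3, chr14:86277895-86278194, minus strand: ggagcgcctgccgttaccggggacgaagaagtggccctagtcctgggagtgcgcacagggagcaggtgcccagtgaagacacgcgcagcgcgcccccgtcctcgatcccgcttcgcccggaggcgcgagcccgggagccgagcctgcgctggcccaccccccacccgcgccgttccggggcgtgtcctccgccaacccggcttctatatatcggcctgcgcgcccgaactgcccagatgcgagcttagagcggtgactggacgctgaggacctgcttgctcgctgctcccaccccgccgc
Both Igf2 windows and the Igfbp2 window each held 1 GC box by these letters, which 33.1% of all 33469 windows of this length held. The Igf1 and Igfbp3 windows held none of the 3 by these exact letters, where the TATA box letters were in 14.2% and the CCAAT box letters in 37.5% of all windows. Variant forms of the boxes were not searched, so a window without a match may still hold one. The GC content was 48.3% for Igf1, 60.7% and 63.3% for Igf2, 66.7% for Igfbp2 and 71.7% for Igfbp3, beside a median of 51.7%. The arrays measured transcripts and not these regions. In the same gene table Igfbp2 and Igfbp5 are neighbours on chromosome 9 and Igfbp1 and Igfbp3 neighbours on chromosome 14, with 0 protein-coding genes between the members of each pair.

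Genes that act beside or below the IGF receptors were not picked for how they moved. Of 90 listed genes, 60 had a probe set and 44 were tested, each by its brightest probe set. In limma 0 of the 44 passed an adjusted p of 0.05, beside 2.17% of 3221 genes tested, and 2 had an unadjusted p under 0.05, beside 15.5% of genes. In all, 21 were higher and 23 lower in SNc, with a median of -0.02. The median was -0.11 for 8 related ligands, receptors and genes of the growth hormone axis (1 higher, 7 lower in SNc), -0.04 for 13 adaptors and brakes (6 higher, 7 lower), 0.11 for 15 genes of the PI3 kinase and Akt branch (10 higher, 5 lower) and -0.02 for 8 genes of the Ras and MAP kinase branch (4 higher, 4 lower).

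The 2 genes with an unadjusted p under 0.05, Eif4ebp1 and Grb10, both had lower signals in SNc without passing the threshold. Being fewer than the share among all genes, they are described singly, and no common function is read from them. Eif4ebp1, which holds back translation until mTOR phosphorylates it, had 334 ± 45.5 in SNc, against 511 ± 134 in VTA (SD, n = 8 and 7), a difference of -0.56 (SE 0.16; limma adjusted p = 0.0718), and its second probe set gave -0.50. The groups met at their edges, from 264 to 387 in SNc and 376 to 699 in VTA. Grb10, an adaptor that dampens insulin and IGF1 receptors, had 474 ± 107 in SNc, against 736 ± 202 in VTA (SD, n = 8 and 7), a difference of -0.60 (SE 0.18; limma adjusted p = 0.0909), and ran from 335 to 642 in SNc and from 468 to 1091 in VTA. Each passed the threshold in 2 of 25 alternatives, with limma adjusted p of 0.0211 to 0.168 for Eif4ebp1 and 0.0358 to 0.207 for Grb10. Ywhaz, a 14-3-3 protein, differed by 0.38 (SE 0.19) on its brightest probe set and by -0.07 and -0.08 on the others. Rps6kb1, the S6 kinase, differed by 0.34 (SE 0.16) and by -0.13 on a dimmer probe set. Nf1 and Araf, a brake and a kinase of the Ras pathway, differed by -0.31 (SE 0.18) and -0.23 (SE 0.15), and the other Nf1 probe sets by 0.04, 0.21 and -0.10. Ins2, an insulin gene, and Igfals, the partner of IGF and IGFBP3 in blood, differed by -0.21 (SE 0.14) and -0.20 (SE 0.14), and the other Igfals probe sets by -0.28 and -0.37.

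**Figure D5:**
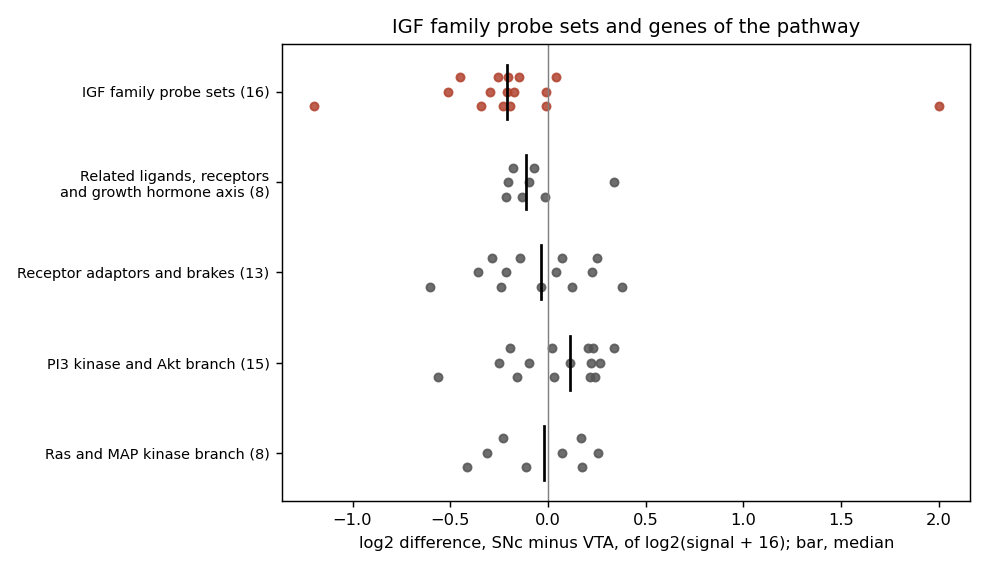
Difference between SNc and VTA on the log2(signal + 16) scale for the 16 tested IGF family probe sets, in red, and for 44 tested genes in 4 lists of the pathway, with medians as bars and the number of points in brackets. The pathway genes lie between -0.60 and 0.38, and the outer red points are Igfbp3 at -1.20 and Igf1 at 2.003.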

How the data were processed

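Total RNA of laser-captured SNc and VTA neurons was profiled on 15 single-colour arrays, grouped by the sample titles. The authors deposited linear intensities, with the same 2% trimmed mean of 150.2 on each array by their values; no source used here names software or background correction. Of 8799 rows, 59 controls were left out. Platform annotation gave 7006 probe sets 1 symbol, 308 several and 1426 none; gene identifiers of 6985 were found in the GRCr8 gene table, used for names and neighbours only, and 0 member symbols changed.

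Values were turned into log2(intensity + 16), the dimmest 40% by mean log2 were dropped, and 5244 probe sets were fitted with limma 3.58.1 in R 4.3.3 (lmFit, eBayes, two-sided, Benjamini-Hochberg, threshold 0.05). On simulated data for SNc minus VTA over 5244 probe sets, with 50 changed per size, the fit called 24% of those moved by 0.5 on the log2 scale, 88% of those by 1, 96% of those by 1.5 and 100% of those by 2. Precision is limited by the number of arrays. The members, lists and tests were chosen with earlier results of these data known. The genes named were all members, pathway genes past the threshold or with the 2 smallest p per list, the 5 probe sets most like each of the 2 brightest Igf1 probe sets, and the 2 brightest genes per marker list. Within a list, a gene stood as its brightest probe set. The markers described on VTA 3 beyond these, and the further astrocyte markers, were named after their values were seen. Alternatives were other offsets (1 and 64), quantile normalization, centring on medians, no filter, a 60% filter, the replicate number as a block, gene means and leaving out arrays.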

Additional observations from a re-analysis of the deposited data

Results flagged for a closer look

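Among 48 groups of arrays, 24 probe sets in 2 regions, 5 held an array far from the others of its region by Dixon's test on the log2(signal + 16) scale, where chance flags about 5% of groups. Past the filter it was 3 of 32 groups, beside 6.98% of the 10488 groups of all tested probe sets. On Igfbp2 the array VTA 3 had 601.4 on J04486_at, against 10.9 to 46.1 on the other VTA arrays, and 106.5 on A09811cds_s_at, against 3.34 to 16.2. On Igf2r the array SNc 5 had 87.31, against 183 to 301 on the other SNc arrays. On Igf2 the array SNc 3 had 74.04 on M17960_g_at, against 112 to 158. On Igfbp5 the array VTA 5 had 6.482 on rc_AI070577_at, against 1.31 to 3.35, all far below the filter. Over all 5244 tested probe sets, VTA 3 was such a high array in 16 (0.305%), where arrays ranged from 1 (SNc 2) to 32 (VTA 5).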

How the results depend on the processing

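As a description, since these values chose the family, the Igf1 M15481_g_at difference ran from 1.38 (offset of 64) to 2.53 (offset of 1) over 24 probe set alternatives. That of Igfbp3 rc_AI009405_s_at ran from -1.62 (offset of 1) to -0.71 (offset of 64) over 23 and missed the threshold under 7. All 374 alternative values of differences of tested members lay within 1 replicate SD of the reported ones. This bound is loose, since leaving out 1 array can move a group mean by only part of that SD. Igfbp2 J04486_at kept within it although its difference turned from -0.20 to 0.35 without VTA 3. The 2 calls among members became 1, Igf1 alone, with an offset of 1, no filter or a 60% filter (which drops the Igfbp3 probe set), and without VTA 5 and VTA 8. They became 0 with gene means, an alternative chosen for members after seeing the data. Leaving out each array gave 1 to 2 (1 without SNc 3, VTA 1, VTA 5 or VTA 6).

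Calls over all probe sets, 104, were 60 with an offset of 1, 223 without SNc 5, SNc 7 and SNc 8, and 56 to 115 leaving out each array, with 69, 56 and 68 without SNc 2, SNc 3 and SNc 4 and 66, 59, 68, 62 and 64 without VTA 1, VTA 2, VTA 3, VTA 5 and VTA 6. Pathway calls, 0, were 1 in 4 settings: Eif4ebp1 with an offset of 64 (adjusted p = 0.0399) and with gene means (0.0211), its adjusted p running from 0.0211 to 0.168 over 25 alternatives, and Grb10 with the replicate block (0.0358) and without SNc 5, SNc 7 and SNc 8 (0.0459), from 0.0358 to 0.207. They were 0 to 0 leaving out each array. The cause was not tested. Igf1 correlations past the threshold were 0 in each alternative.

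The labels do not say whether equal numbers mark 1 animal. Deviations of all 7 same-numbered pairs correlated positively (0.04 to 0.25), 5 of them over 0.1, and 3 VTA arrays correlated best with their own number, which falls short of every pair over 0.1, so the block was not used for the reported values. The replicate block gave 2 member calls, 99 calls over all probe sets and 1 pathway call. Precision is limited by 15 arrays and, for dim probe sets, by signals near the offset.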
